A study of Mus musculus with 2 samples.

Results

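The core circadian clock genes form the transcriptional loop that gives cells a daily rhythm. The 10 followed here were picked by symbol from the GENCODE M21 annotation: Arntl, Clock, Per1, Per2, Per3, Cry1, Cry2, Nr1d1, Nr1d2 and Dbp. They are 10 of 55536 annotated genes, and all 10 were found and measured in both libraries. Arntl (which encodes BMAL1) and Clock are called the Arntl arm below. The other 8 are called the Per arm.

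As background, CLOCK and BMAL1 proteins bind E-box sequences together and switch on the Per, Cry, Nr1d and Dbp genes. PER and CRY proteins then feed back and inhibit that pair, while the REV-ERB receptors encoded by Nr1d1 and Nr1d2 repress Arntl by binding ROR elements, so Arntl transcripts and those of the Per arm peak at different times of day in adult tissues. The adrenal gland has such a clock of its own, which is known for gating the daily output of glucocorticoids, and glucocorticoids in turn can induce Per1.

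The samples were adrenal glands of male B6Cast F1 mice (strain B6CASTF1/J, the F1 hybrid of C57BL/6J and CAST/EiJ) at postnatal day 10, with no treatment or engineered allele named in the labels. Total RNA was sequenced in 2 libraries, each from 300 ng, which are replicates 1 and 2 of a single group. The time of day of collection, on which clock gene levels depend, is not given in the labels used here. The characteristics number the animals 3 and 4, but both library descriptions carry the animal number 3 and the donor identifier is shared, so the labels do not settle whether the libraries come from separate animals. With 2 libraries and no second group there is no test of any difference, and each comparison below is a description of these libraries.

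The libraries held 36652695 and 38641442 expected counts on annotated genes, of which 16883 and 18983 fell on the 10 clock genes. Expected counts per clock gene and library ran from 400 (Dbp, replicate 2) to 5794 (Per1, replicate 2). Levels are given as TPM, a relative abundance scaled to a constant total in each library, which corrects for transcript length and so can be compared between genes. Differences between libraries are given as the ratio of replicate 2 over replicate 1, from expected counts scaled by TMM (a factor fitted over all genes), each with a 95% exact binomial interval that covers counting error only. The reads of both parental alleles were counted together against the reference genome, and in bulk tissue fewer cells of a type and less RNA per cell cannot be told apart.

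Markers of the adrenal cortex were abundant in both libraries, with Hsd3b1 at 1854 and 1531 TPM and Star at 1611 and 1460 TPM, and the medullary markers Chga (477 and 379 TPM) and Chgb (406 and 323 TPM) were also abundant. Markers of other tissues differed between the libraries. All 6 liver markers were past 1.5-fold higher in replicate 2, with summed levels of 3616 and 11278 TPM (Alb 2046 and 6173, Ahsg 720 and 2421). All 6 skeletal muscle markers were likewise past 1.5-fold higher (summed 297 and 808 TPM), as were all 7 granulocyte markers (summed 31.7 and 97.0 TPM) and 5 of 6 lymphocyte markers (4 of 6 by library or spike-in total, summed 5.15 and 10.2 TPM). The 6 brown adipocyte markers summed to 3457 and 3061 TPM, led by Ucp1 (1566 and 1149 TPM) and Cox8b (924 and 950 TPM). Elovl3 was low, at 4.69 and 3.43 TPM. The 6 cortex markers were all lower in replicate 2, with a median ratio of 0.927, as were the 6 chromaffin markers, with a median of 0.829. Of 5 kidney markers, Umod, Slc12a1 and Slc34a1 had 0 counts in both libraries, and the summed level was 0.79 and 0.48 TPM. The part of these differences in the clock gene ratios below was not tested.

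The promoters of the clock genes are shown first because the loop runs through short elements in them. RefSeq windows (GRCm38.p6, from 250 bases before to 50 after each start site) were found for 9 of the 10 genes, 13 windows in all, with Per2 not among them. Both strands were searched for the E-box CACGTG, the E-prime box CACGTT, the D-box as TTATGTAA or TTACGTAA, the ROR element as TAGGTCA or TGGGTCA, and the cyclic AMP response element TGACGTCA. None of these forms contains another. The 2 genes farthest apart between the libraries, Per3 and Nr1d1, are printed with the 250 bases before their start sites, the matches in capitals. Per3 (chr4:151044666-151044915, minus strand) holds 2 D-boxes, at 158 and 205 bases before the start. Nr1d1 (chr11:98775378-98775627, minus strand) holds 1 E-prime box at 28 bases before the start, read as AACGTG on the gene's strand.
Per3: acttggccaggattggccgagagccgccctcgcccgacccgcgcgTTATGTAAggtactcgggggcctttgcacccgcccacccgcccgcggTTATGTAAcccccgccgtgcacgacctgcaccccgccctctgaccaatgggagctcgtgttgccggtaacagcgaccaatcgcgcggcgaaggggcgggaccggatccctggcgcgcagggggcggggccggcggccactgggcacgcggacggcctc
Nr1d1: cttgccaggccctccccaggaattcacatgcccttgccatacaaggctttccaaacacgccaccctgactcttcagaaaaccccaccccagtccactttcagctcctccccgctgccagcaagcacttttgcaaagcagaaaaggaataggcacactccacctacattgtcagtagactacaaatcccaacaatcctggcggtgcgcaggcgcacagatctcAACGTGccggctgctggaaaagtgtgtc

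The other matches are given as short sites, again with the match in capitals and in the direction of the gene, because they carry the elements of the activating and repressing steps. Per1 and Cry1 each held an E-box, at 166 and 60 bases before the start (chr11:69098773-69098798, plus strand, and chr10:85185099-85185124, minus strand). Cry1 also held an E-prime box at 79 bases before the start (chr10:85185118-85185143, minus strand), and Cry2 one at 166 bases before it (chr2:92434220-92434245, minus strand). Arntl held the only match of the set to the ROR forms searched, beginning at base 31 counted from and including the downstream of its RefSeq starts (chr7:113207531-113207557, plus strand). Other forms of the ROR element were not searched.
Per1 E-box: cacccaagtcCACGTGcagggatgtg
Cry1 E-box: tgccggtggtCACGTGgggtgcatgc
Cry1 E-prime box: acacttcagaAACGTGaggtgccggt
Cry2 E-prime box: acatggtgggAACGTGagggggcgga
Arntl ROR element: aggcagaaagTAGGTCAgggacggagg

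Among all 32851 windows of the same length, 7.15% held the E-box, 4.685% the E-prime box, 1.056% the D-box, 6.453% the ROR element and 1.79% the cyclic AMP response element. Of the 13 clock gene windows these counts were 2, 3, 1, 1 and 0. The windows of Clock, Dbp and Nr1d2 held none of the searched forms. A match is a run of letters in the reference genome and is not shown to be bound in this tissue.

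Arntl stood at different levels in the 2 libraries, while the values of its partner Clock were close. Arntl (ENSMUSG00000055116.8, chromosome 7, 113207465 to 113314126, mm10), which encodes the BMAL1 subunit of the activator, had 12.7 TPM in replicate 1 and 8.54 in replicate 2 (10.6 ± 2.97, SD, n = 2). The TPM intervals that the authors deposited, 11.9 to 13.4 and 7.92 to 9.08, do not overlap, and its ratio was 0.705 (0.646 to 0.769). Clock (ENSMUSG00000029238.11, chromosome 5, 76209868 to 76304792), the other subunit, was at 12.4 and 11.9 TPM (12.1 ± 0.375), with a ratio of 0.955 (0.909 to 1.003). In replicate 1 the 2 subunits were nearly level, with 0.973 Clock transcripts per Arntl transcript on the TPM scale, and in replicate 2 the figure was 1.39.

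**Figure D1:**
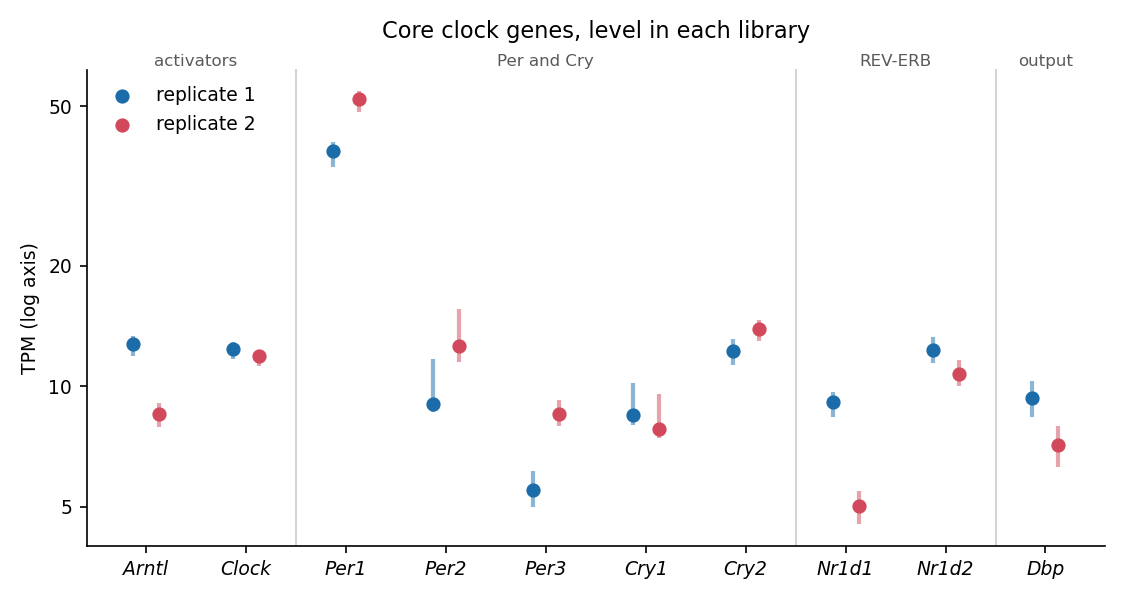
Level of each clock gene in TPM (log axis) in replicate 1 and replicate 2, with the interval bounds the authors deposited as vertical lines. Per1 stands above the other 9 genes in both libraries, and Arntl and Nr1d1 are lower in replicate 2 while Per1, Per2 and Per3 are higher.

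The 3 Period genes were each higher in replicate 2. Per1 (ENSMUSG00000020893.17, chromosome 11, 69095217 to 69109960), which encodes a repressor of CLOCK and BMAL1 and is also inducible by stimuli outside the loop, had 38.6 and 52.3 TPM (45.4 ± 9.63) and a ratio of 1.41 (1.36 to 1.47). Per2 (ENSMUSG00000055866.9, chromosome 1, 91415982 to 91459324), a repressor of the same complex, had 9.03 and 12.6 TPM (10.8 ± 2.52) and a ratio of 1.34 (1.26 to 1.42). The deposited intervals of Per2, 8.59 to 11.7 and 11.5 to 15.6 TPM, overlap slightly, whereas those of Per1, 35.4 to 40.7 and 48.5 to 54.6 TPM, do not. Per3 (ENSMUSG00000028957.12, chromosome 4, 151003652 to 151044665), the Period paralog least required for rhythm in mice, had 5.50 and 8.51 TPM (7.01 ± 2.13) and the highest ratio of the 10 genes, 1.69 (1.56 to 1.83). Its deposited intervals, 4.99 to 6.15 and 7.95 to 9.21 TPM, are also apart.

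The Cryptochrome genes, whose proteins pair with PER and inhibit the activator, were closer between the libraries. Cry1 (ENSMUSG00000020038.10, chromosome 10, 85131700 to 85185064) had 8.45 and 7.81 TPM (8.13 ± 0.453) and a ratio of 0.947 (0.859 to 1.04), an interval that includes 1. Cry2 (ENSMUSG00000068742.11, chromosome 2, 92403646 to 92434043) had 12.3 and 13.9 TPM (13.1 ± 1.17) and a ratio of 1.23 (1.15 to 1.32). The level of Cry2 was 1.45 times that of Cry1 in replicate 1 and 1.78 times in replicate 2, so Cry2 was the more abundant in each library.

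The REV-ERB genes and Dbp were lower in replicate 2, the side on which Arntl also lay. Nr1d1 (ENSMUSG00000020889.11, chromosome 11, 98767932 to 98775333), which encodes REV-ERB alpha, a repressor of Arntl, had 9.11 and 5.03 TPM (7.07 ± 2.89) and the lowest ratio of the 10 genes, 0.559 (0.499 to 0.626). Its deposited intervals, 8.38 to 9.64 and 4.52 to 5.48 TPM, are far apart. Nr1d2 (ENSMUSG00000021775.11, chromosome 14, 18204054 to 18239127), the gene of the paralogous REV-ERB beta, had 12.3 and 10.7 TPM (11.5 ± 1.12) and a ratio of 0.885 (0.825 to 0.949). Dbp (ENSMUSG00000059824.12, chromosome 7, 45705088 to 45710203), a D-box-binding output factor of the loop, had 9.32 and 7.11 TPM (8.22 ± 1.56) and a ratio of 0.798 (0.698 to 0.911). All 3 are direct targets of CLOCK and BMAL1 by textbook knowledge, as are the Period genes, yet the 3 lay below 1 and the 3 Period genes above it.

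**Figure D2:**
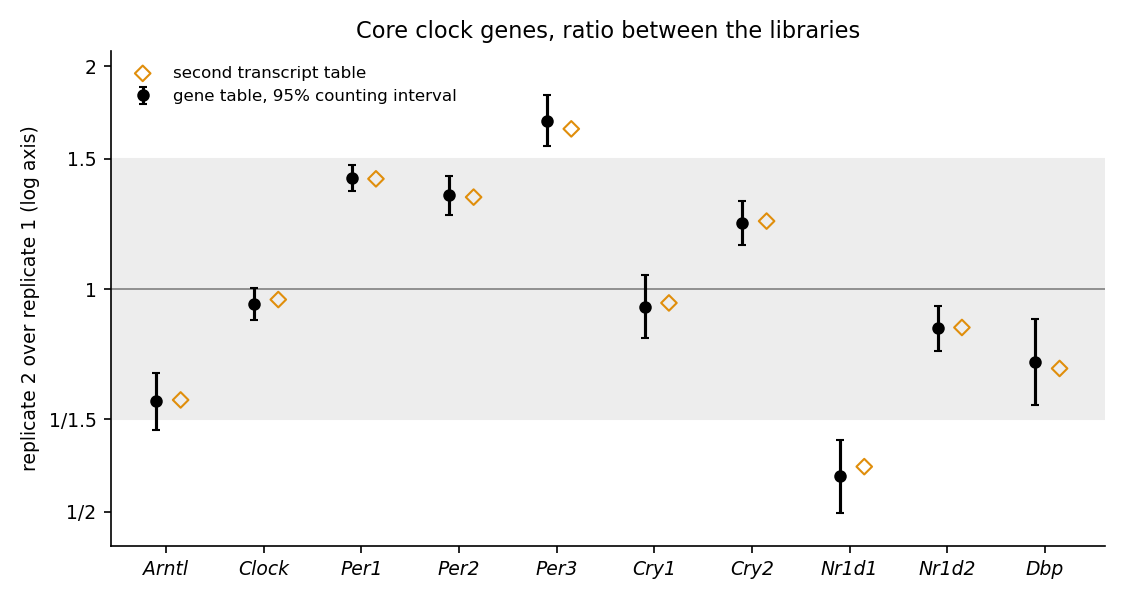
Ratio of replicate 2 over replicate 1 for each clock gene (log axis), with the 95% counting interval from the gene table as a bar and the ratio from the second transcript table as an open diamond. Per3 lies above and Nr1d1 below the grey band of 1.5-fold, and both tables put each gene on the same side of 1.

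Set beside all genes, a larger share of the clock genes lay past 1.5-fold, and none lay past 2-fold. Past 1.5-fold in either direction were 2 of 10 clock genes (20%), against 8.47% of the 13188 annotated genes whose expected counts averaged 100 or more. These 2 were Per3, higher in replicate 2 where 7.62% of all genes were, and Nr1d1, lower where 0.849% of all genes were. Past a ratio of 5 to 4 in either direction were 6 of 10 (60%), against 18.3% of all genes. Per1, Per2 and Per3 made up the higher side (13.3% of all genes), and Arntl, Nr1d1 and Dbp the lower side (5.01% of all genes). The median size of the difference was 1.30-fold over the 10 clock genes and 1.09-fold over all genes. Counting both directions, the log2 ratios of the 10 genes had a median of -0.07, beside -0.01 for all genes, since 4 genes were higher and 6 lower in replicate 2. Past 2-fold were 0 of 10, against 4.48% of all genes.

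The order of levels was dominated by Per1, the only gene whose 2 values lay clear of its neighbour. Its mean was 3.47 times that of Cry2, which came next. The gap was narrower in the second transcript table, at means of 44.7 TPM for Per1 and 18.5 TPM for Cry2. In the first transcript table, 36.6% and 35.3% of Per1 lay in Per1-204, a 496-base annotated fragment with 0 TPM in the second. Cry2, Clock, Nr1d2, Per2, Arntl, Dbp, Cry1, Nr1d1 and Per3 followed within a span of 1.87-fold in their means, and the values of neighbours overlapped in 8 of the 9 neighbouring pairs. Among the detected protein-coding genes, 12487 with at least 1 TPM in both libraries and a median of 9.69 TPM, Per1 lay at the 89.6th percentile of the mean level, Arntl at the 53.3rd and Per3 at the 39.3rd. Within the set, Arntl ranked 2 in replicate 1 and 6 in replicate 2, Per2 moved from 8 to 3, Per3 from 10 to 7 and Nr1d1 from 7 to 10. Below Per1, both values of Cry2, Clock and Nr1d2 (lowest 10.7 TPM, Nr1d2) lay above both values of Dbp, Cry1, Nr1d1 and Per3 (highest 9.32 TPM, Dbp), while Per2 and Arntl overlapped genes of both sets.

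The contrast of the Arntl arm with the whole Per arm was small. Within each library, the median log2 TPM of the 8 Per arm genes minus that of Arntl and Clock was -0.45 in replicate 1 and -0.07 in replicate 2 (-0.26 ± 0.26, SD, n = 2). The 2 values have the same sign, but their spread is as large as their mean. The median log2 ratio of replicate 2 over replicate 1 was -0.29 in the Arntl arm and 0.11 in the Per arm, a difference of 0.40. The Per arm did not lie on 1 side: 4 genes were higher (Per1, Per2, Per3, Cry2) and 4 lower (Cry1, Nr1d1, Nr1d2, Dbp), from -0.84 for Nr1d1 to 0.76 for Per3.

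The contrast depended on which Per arm genes were set against Arntl. For Arntl alone against Per1, Per2 and Per3, the level difference was -0.50 in replicate 1 and 0.56 in replicate 2, so its sign turned between the libraries, and the difference in log2 ratio was 1.00. For 2 further groupings chosen after the values were seen, Arntl and Clock against the 3 Period genes gave a difference in log2 ratio of 0.79, and Arntl and Clock against Nr1d1, Nr1d2 and Dbp gave -0.04. In these libraries the REV-ERB genes and Dbp lay on the same side of even as the Arntl arm, and the Period genes on the other.

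Ratios of a gene to Arntl within a library need no scaling between libraries. Per1 transcripts stood at 3.03 per Arntl transcript in replicate 1 and at 6.12 in replicate 2, on the TPM scale (1.97 and 3.90 in the second transcript table). Per2 went from 0.709 to 1.48 and Per3 from 0.432 to 0.996, so Per2 lay below Arntl in one library and above it in the other. On expected counts these were changes of 2.01-fold for Per1 (1.82 to 2.21), 1.90-fold for Per2 (1.71 to 2.11) and 2.40-fold for Per3 (2.13 to 2.70). Per1 and Per2 shifted against Arntl by like amounts, and Per2 against Per1 gave 0.946 (0.880 to 1.02), an interval that includes 1. Per3 shifted more than Per1, by 1.19 (1.09 to 1.31). Cry2 against Arntl shifted by 1.74 (1.56 to 1.95), from 0.962 to 1.63, and Cry1 by 1.34 (1.18 to 1.53), from 0.663 to 0.915. Nr1d2 shifted by 1.255 (1.12 to 1.40) and Dbp by 1.13 (0.964 to 1.33), an interval that includes 1. Nr1d1 was the exception among the 9 partners of Arntl, with 0.715 in replicate 1, 0.589 in replicate 2 and a change of 0.793 (0.687 to 0.916). These ratios all share Arntl, whose own ratio between the libraries was 0.705. Clock, Cry1, Nr1d2 and Dbp thus rose against it although their own ratios were below 1 (0.955, 0.947, 0.885 and 0.798).

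**Figure D3:**
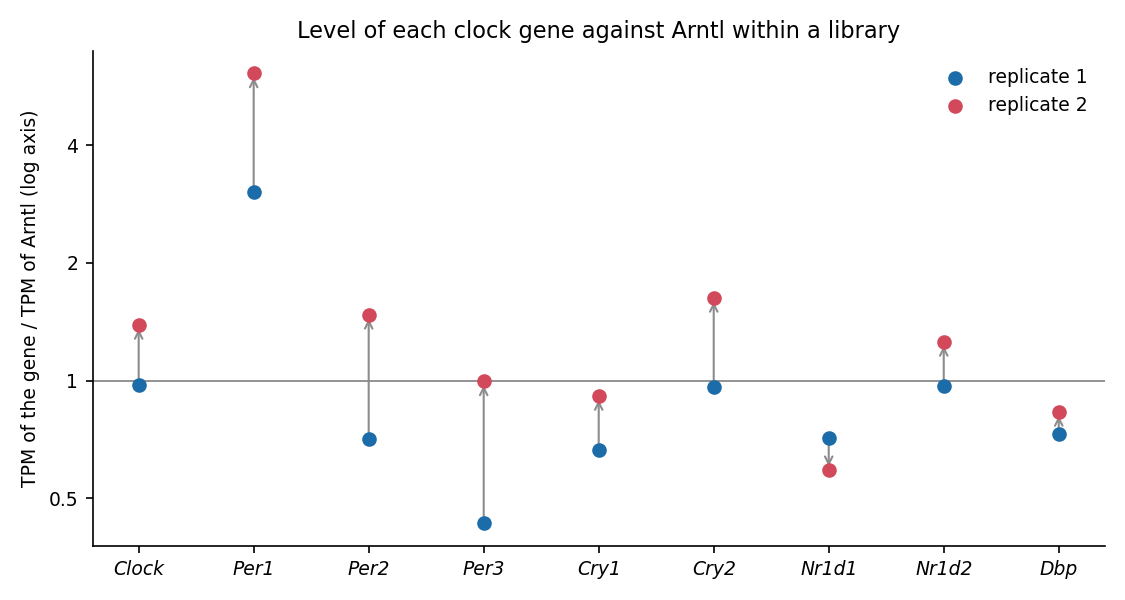
TPM of each clock gene divided by the TPM of Arntl in the same library (log axis), with an arrow from replicate 1 to replicate 2. Of the 9 genes, 8 move up against Arntl, which is itself lower in replicate 2, most for Per3 and Per2, and Nr1d1 moves down.

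The widest shift of the pairs computed was that of Per3 over Nr1d1, both of the Per arm. It follows from their having the highest and the lowest ratio of the 10 genes. Per3 was at 0.604 of the level of Nr1d1 in replicate 1 and at 1.69 times it in replicate 2, a change of 3.02-fold on expected counts (2.63 to 3.48). Per1 over Nr1d1 went from 4.24 to 10.4 (2.53-fold, 2.24 to 2.86, with TPM ratios of 2.85 and 6.86 in the second table) and Per2 over Nr1d1 from 0.991 to 2.50 (2.40-fold, 2.11 to 2.73). Against Dbp the Period genes shifted less, by 1.77-fold for Per1, 1.68-fold for Per2 and 2.12-fold for Per3. The REV-ERB paralogs also parted, with Nr1d2 over Nr1d1 at 1.35 and 2.14 (1.58-fold, 1.38 to 1.81). These pairs share genes and libraries, so they are not separate observations.

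The annotated transcripts of several clock genes were also divided differently between the libraries. The 10 genes have 44 annotated transcripts, of which 6 had 0 counts in both libraries in the first transcript table. For Arntl, the transcript Arntl-201, which has 20 exons and starts at the upstream end of the gene, held 67.8% of the gene's TPM in replicate 1 and 87.6% in replicate 2. Arntl-206, a protein-coding transcript that starts farther downstream at position 113234623, held 20.9% and 7.38%, at 2.66 TPM (deposited interval 1.66 to 3.75) and 0.63 TPM (0.220 to 1.24). The second transcript table gave the same order, with 65.4% and 77.3% for Arntl-201 and 26.1% and 16.0% for Arntl-206. The level of Arntl-201 alone had a TPM ratio of 0.866 between the libraries, nearer to 1 than the 0.6703 of the gene.

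Per3 and Cry2 held more of their signal in retained-intron or processed transcripts in replicate 1. For Per3, the share of such transcripts was 35.2% in replicate 1 and 19.8% in replicate 2 (26.5% and 12.4% in the second table). Its main coding transcript, Per3-201, was at 3.50 and 6.63 TPM, a ratio of 1.89, and Per3-202, a retained-intron form, held 22.2% and 16.0% of the gene. The level of Per3-202 itself was not lower in replicate 2, at 1.22 and 1.36 TPM. For Cry2, the share of retained-intron or processed transcripts was 15.9% and 8.05% (10.4% and 5.24% in the second table), and Cry2-201 held 75.2% and 83.4%. Of the 9 genes with such transcripts, the share was lower in replicate 2 in 6, and in 7 by the second table. Some of these differences were small, such as that of Clock (17.2% and 16.0%). The same count over all genes is not given here, so it cannot be read as a trait of the clock genes.

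**Figure D4:**
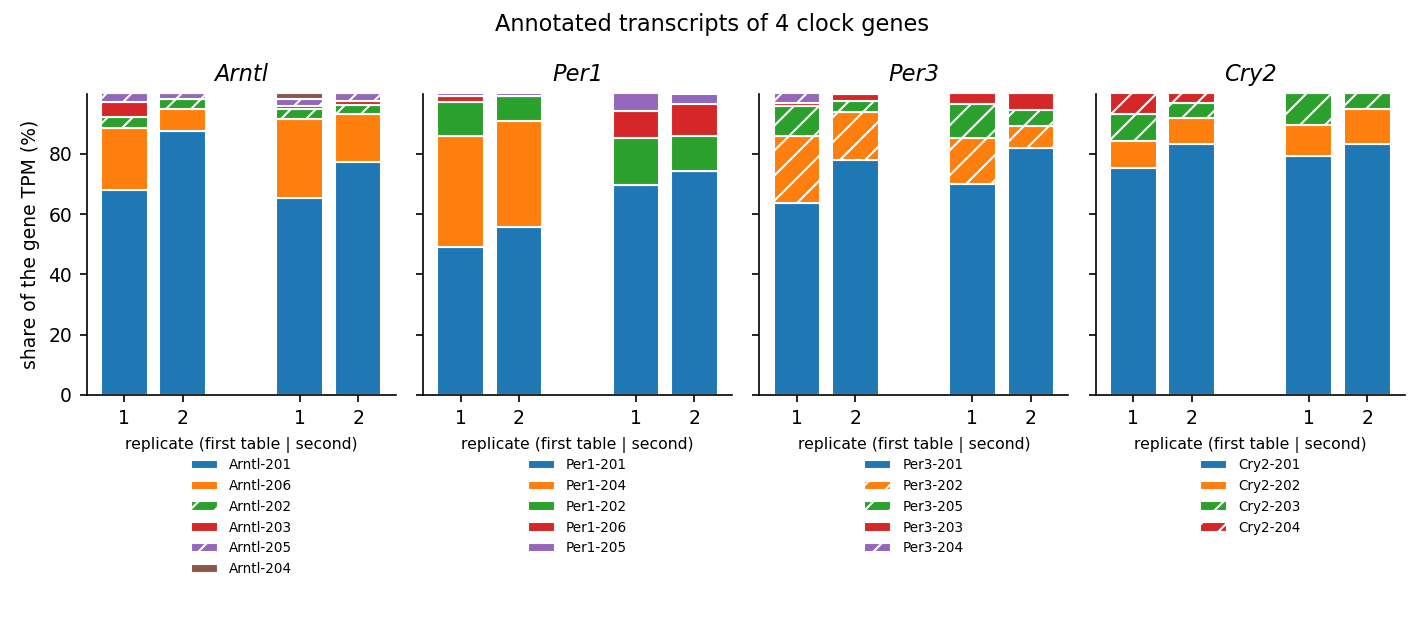
Share of the gene's TPM (%) in each annotated transcript of Arntl, Per1, Per3 and Cry2, for replicates 1 and 2 in the first and the second transcript table, with hatching for retained-intron and processed transcripts. The main transcript of each gene takes a larger share in replicate 2 in both tables, and Per1-204 appears in the first table only.

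The division of Per1 and Clock depended on the table more than on the library. Per1-204, a 496-base annotated fragment, held 36.6% and 35.3% of Per1 in the first table and 0 TPM in the second, where Per1-201 held 69.7% and 74.3% in place of 49.2% and 55.7%. Per1-202, which starts upstream at position 69095217, held 11.4% and 8.11%, and Per1-206 held 2.05% and 0.00% in the first table but 8.95% and 10.7% in the second. For Clock, Clock-205 (38.7% and 35.3%) and Clock-201 (37.4% and 35.9%) were level in the first table, while the second gave 22.6% and 19.8% to Clock-205 and 54.0% and 51.2% to Clock-201. Clock-204 held 6.70% and 12.8%.

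In the other genes the main transcript held a similar share in both libraries in the first table. Per2-201 held 100% and 94.4% of Per2, Cry1-201 93.7% and 94.8% of Cry1, and Nr1d1-201 96.7% and 96.4% of Nr1d1, so the lower level of Nr1d1 in replicate 2 lay in its main transcript. Nr1d2-201 held 75.6% and 75.3% (73.5% and 81.6% in the second table, a wider gap), and the retained-intron form Nr1d2-202 held 16.7% and 17.9%. Dbp-201 held 61.1% and 64.4%, Dbp-204 17.6% and 17.5%, and the retained-intron form Dbp-202 13.5% and 9.15%.

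Some clock genes share exonic bases with a neighbour on the opposite strand, and the strand setting of the counting is not given in the sources used here. Nr1d1 shares 263 bases, 8.55% of its exonic length, with Thra, the thyroid hormone receptor alpha gene, which was at 39.0 and 44.99 TPM with a ratio of 1.18 (1.12 to 1.24), on the other side of 1 from Nr1d1. Dbp shares 539 bases, 18.01% of its exonic length, with Sphk2, at 10.1 and 9.31 TPM and a ratio of 0.950 (0.873 to 1.03). Cry2 shares 295 bases (4.67%) with D930015M05Rik, which had 3 and 1 counts, and Arntl shares 33 bases with Gm45355, which had 0 in both. Per3 lies within Camta1 on the same strand and Clock overlaps Ube2n-ps1 and Gm43658, with 0 shared exonic bases in each case. The ratio of Camta1 was 1.09 (0.948 to 1.24), and that of Per3 was the higher. Ube2n-ps1 (31.7 and 32.3 TPM, 1.03) and Gm43658 (0.38 and 0.32 TPM, 0.876) were close between the libraries.

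Around the 10 genes, a list of 22 other clock genes was nearly even between the libraries at its median. Of these, 2 were past 1.5-fold higher in replicate 2 (against 7.62% of all genes) and 0 were past it lower (against 0.849%), while 13 were higher and 9 lower by any amount, with a median log2 ratio of 0.04. Scaling by library total left 0 past 1.5-fold, 10 higher and 12 lower, with a median of -0.03, and scaling by spike-ins left 1, 10 and 12, so the list has no stable direction. The 2 were Nfil3, a repressor at D-boxes, at 17.9 and 27.8 TPM (1.58-fold, 1.47 to 1.70) and Bhlhe40, a repressor at E-boxes, at 22.7 and 31.2 TPM (1.52-fold, 1.44 to 1.62). Other transcription factors of the list were closer. Rora, a ROR receptor gene, was at 15.7 and 14.6 TPM (0.901), Tef, which binds D-boxes as Dbp does, at 23.8 and 22.7 TPM (1.03, below 1 by library or spike-in total), and Ciart, an E-box repressor, at 1.54 and 1.62 TPM. Hlf, listed with Tef, was at 5.63 and 7.48 TPM (1.295-fold, 1.19 to 1.41), higher in replicate 2 where Dbp was lower. The paralogs of the activator were low, Npas2 at 2.44 and 2.53 TPM and Arntl2 at 0.35 and 0.42 TPM, as was Rorb, at 0.08 and 0.18 TPM.

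The genes that modify or degrade PER and CRY proteins were mostly close to even. Among the kinases, 1 of 4 was higher and 3 lower (0 and 4 by library or spike-in total), with Csnk1a1 at 97.7 and 86.4 TPM and Csnk1d at 42.1 and 42.7 TPM. All 3 ubiquitin ligase subunits listed were lower in replicate 2, with a median ratio of 0.895 (Fbxw11 27.7 and 22.6 TPM, and Btrc 9.06 and 8.76 TPM). The lowest of the 3 was Fbxl21, at 0.731 (0.489 to 1.09), on only 63 and 46 counts. All 4 clock-controlled outputs had ratios above 1 (3 of 4 by library total, spike-in total or the second table), with a median of 1.12 (Nampt 58.9 and 56.7 TPM, ratio 1.00, and Noct 18.3 and 20.1 TPM, ratio 1.11). The highest of the 4 was Usp2, at 1.30 (1.21 to 1.41). Timeless was at 4.77 and 5.43 TPM, with a ratio of 0.980. For Nampt, Timeless, Csnk1d and Tef the TPM and the scaled counts lie on opposite sides of even, so none of these 4 has a stable direction here.

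Genes that respond to stimuli reaching Per1 from outside the loop were mostly higher in replicate 2, the library in which Per1 was higher. Of 10 immediate early genes, all 10 were higher by scaled counts (9 by TPM) and 5 past 1.5-fold higher, where 7.62% of all genes were, with a median ratio of 1.52. Nr4a1, an orphan receptor gene induced by adrenocorticotropic hormone, had 119.6 and 195.7 TPM (1.78-fold), Fosb 0.86 and 4.29 TPM (4.77-fold), Nr4a2 2.97 and 7.51 TPM (2.59-fold) and Egr1 21.6 and 33.6 TPM (1.60-fold). The fifth was Atf3, at 0.82 and 1.78 TPM, named after its values were seen because its mean is below 100 counts, and Junb (31.3 and 44.4 TPM, 1.45-fold) was not past 1.5-fold. Of 8 glucocorticoid-responsive genes, 6 were higher and 1 past 1.5-fold, Errfi1 at 23.3 and 52.7 TPM (2.31-fold), with a median ratio of 1.251. Sgk1 (58.3 and 67.6 TPM, 1.24-fold) and Tsc22d3 (42.5 and 56.9 TPM, 1.37-fold) were closer to even. The 2 genes lower by scaled counts were Fkbp5, with a ratio of 0.960, and Zbtb16, with a ratio of 0.956. Fkbp5 was slightly higher by TPM (31.2 and 31.6) and its interval (0.914 to 1.008) includes 1, so it has no stable direction here. Over both kinds of gene and the other clock genes, 8 of 40 were past 1.5-fold, all of them higher in replicate 2 (6 by library total, 10 by the second table). With a minimum of 100 counts this was 7. The lists kept genes averaging 10 or more counts, while the shares of all genes given beside them require 100 or more. At a minimum of 10 counts, 16.3% of all genes were past 1.5-fold in either direction, against 8.47% at 100. Calls over all genes were also mostly on that side, with 7.62% higher and 0.849% lower. Whether these differences bear on those of the Period genes was not tested.

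**Figure D5:**
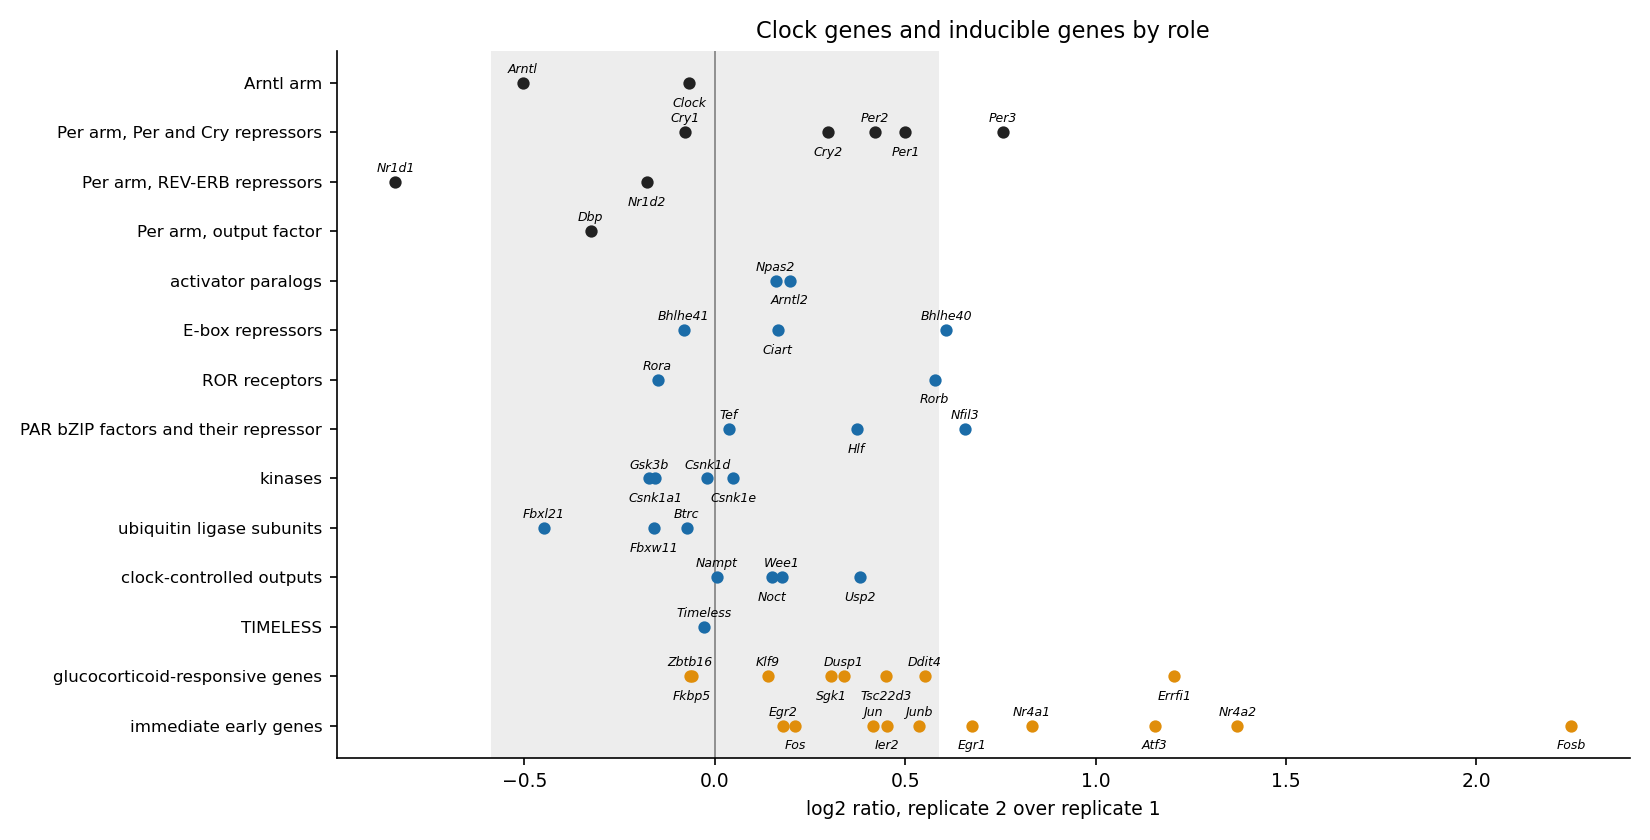
Log2 ratio of replicate 2 over replicate 1 for the 10 core clock genes (black), 22 other clock genes (blue) and 18 inducible genes (orange), grouped by role, with 1.5-fold either way in grey. Core genes reach from -0.84 (Nr1d1) to 0.76 (Per3), and no gene outside the core lies below the grey band.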

How the data were processed

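Adrenal total RNA was measured in 2 libraries of 1 group. Per the file headers, the authors derived expected counts (not normalised) and TPM over 81881 entries, spike-ins included, for mm10 and GENCODE M21, with RSEM column names and TPM interval bounds whose level is not stated. A second deposited transcript table has kallisto column names, with estimated counts and TPM. The sources used here name no tool, version or strand setting. Expected counts were rounded to whole numbers for the ratios of single genes and pairs and their intervals, and used unrounded for log2 ratios and scaling factors. TMM factors came from edgeR 4.0.16 over annotated genes, and log2 ratios used a prior of 0.5 counts. Intervals of single-gene ratios are exact Clopper-Pearson at 95%, and those of changes in a pair of genes are conditional odds-ratio intervals at 95%. Both cover counting error only, and the reads carry no molecular identifiers. Transcript shares are of the summed TPM of a gene. The ratio computation was tested on simulated data. Spike-ins took 0.892% and 0.879% of counts. The members and lists were chosen with earlier results of these data known. Named besides the 10 members were, per list, genes averaging 100 or more counts and past 1.5-fold and the 2 highest by mean TPM, per marker list the 2 highest, per clock gene the transcripts with a share of at least 10% in either library, and overlapping genes. Elovl3, Elane, Cd3g, Fkbp5, Zbtb16, Fbxl21, Usp2 and Hlf, like Atf3, were named after their values were seen. Alternatives were DESeq2 1.42.0 size factors, library and spike-in totals, the second table, other fold and count limits, other arms, arm means, a pseudocount of 1 TPM and leaving out a library. Allele-specific expression was not analysed here, and 2 genes of the list of other clock genes are not reported here.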

Additional observations from a re-analysis of the deposited data

How the results depend on the processing

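All 10 clock genes kept their side of 1 under DESeq2 size factors, library total, spike-in total and the second transcript table, where the log2 ratios moved by at most 0.0013, 0.08, 0.06 and 0.04, and 2 of 10 stayed past 1.5-fold under each. With a limit of 5 to 4, 6 clock genes were past it, and with 2-fold 0, against 18.3% and 4.48% of all genes. The share of all genes past 1.5-fold was 16.3% with a minimum of 10 counts and 4.76% with a minimum of 1000. The difference between the arms was the result that turned on a choice. With Arntl against Per1, Per2 and Per3, the mean level difference was 0.032 and the difference in log2 ratio 1.00. With Arntl and Clock against the 3 Period genes, and against Nr1d1, Nr1d2 and Dbp, the latter was 0.79 and -0.041, both added after seeing the data. Under the library total, the log2 ratios of Clock (-0.14) and Per1 (0.42) moved beyond their counting intervals. TPM levels were higher for all 10 genes when rescaled to nuclear protein-coding genes (Arntl 32.1 and Per1 135.8 on average) and for 9 of 10 beyond their spread in the second table, where detected genes were 1.55 times higher at the median. Leaving out either library returns the value of the other, and a single library has no spread. No paired analysis was possible because the series has a single group.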
